A study of Mus musculus with 12 samples.

Results

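Nitric oxide metabolism was followed in EMT6 cells through NOS2, the inducible nitric oxide synthase, and 5 genes that set its substrate, cofactor or inhibitor: ASS1, GCH1, ARG2, DDAH1 and DDAH2. These 6 members were picked by name. A member had to reach 1 TPM (transcripts-per-million) in at least 1 library to count as measured, and all 6 of the 60683 rows did. All 6 were also among the 14389 rows tested, for which 3 or more of the 12 libraries had to hold 1 TPM or more.

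EMT6 is a mouse breast cancer line, and each group was sequenced in 3 libraries labelled biological replicates. The control groups carried the hairpin named shNTC, with the genotype given as wild type, at 20% O2 or at 1% O2. The knockdown groups carried shISG20, which lowers ISG20, an exonuclease that degrades RNA, at the same oxygen levels. All groups were labelled 48 hours, apart from shISG20 replicate 3 at 20% O2, whose label reads 484 hours. The labels call both lines subclones and name no second one of either kind, so a knockdown effect cannot be told apart from a difference between these subclones. No label says whether replicates were separate cultures, and p-values measure only the spread between these libraries, part of which may be technical.

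The table was made on human gene rows although the cells are mouse, so levels depend on how well mouse reads aligned to each human gene. Levels were therefore compared between groups of a gene and never between genes, and a value of 0 can stand for mouse reads that found no place in the human gene. Reads recovered from the TPM values summed to between 3173991 and 5201799 per library. ISG20 stood at 2.46 ± 0.372 TPM (SD, n = 3) in shNTC and 0.225 ± 0.0942 in shISG20 cells at 20% O2, and at 8.28 ± 0.623 and 0.566 ± 0.140 at 1% O2. Its log2 fold changes of TPM + 1 were -1.50 and -2.57, on a scale that understates changes of low genes. ISG20 passed the filter on low values only through its shNTC libraries, so no p is read from these contrasts. Of the markers of the line, the mesenchymal and epithelial genes VIM, KRT8, KRT18 and FN1 were detected, while the epithelial cadherin CDH1 and the mesenchymal cadherin CDH2 were listed at 0 in all 12 libraries and EPCAM, an epithelial adhesion gene, reached at most 0.752 TPM.

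Nitric oxide synthases convert arginine and oxygen into nitric oxide and citrulline, with tetrahydrobiopterin as cofactor. ASS1 and its partner ASL turn citrulline back into arginine, GCH1 catalyses the first step of tetrahydrobiopterin synthesis, and arginases take arginine towards ornithine. Methylated arginines released from proteins inhibit the synthases, and the dimethylarginine dimethylaminohydrolases DDAH1 and DDAH2 are known for removing them, DDAH1 with the better established activity. NOS2 is best known from macrophages, where cytokines induce it, and it is also a target of hypoxia-inducible factor.

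The promoters of 3 members are shown because DDAH2 carried the clearest difference between the subclones at 20% O2, DDAH1 rose beside it at 1% O2, and ASS1 fell. Each runs 5′ to 3′ from 250 bases before to 50 bases after the gene's start in RefSeq (build GRCm38.p6, Ddah1 at chr3:145758442-145758741, Ddah2 at chr17:35058785-35059084 and Ass1 at chr2:31470020-31470319, all on the plus strand). Capitals mark ACGTG or its reverse complement CACGT, 1 form of the core letters of hypoxia response elements. The other form, GCGTG or CACGC, was not searched and is left in lower case, though it can be read in each window shown.
Ddah1: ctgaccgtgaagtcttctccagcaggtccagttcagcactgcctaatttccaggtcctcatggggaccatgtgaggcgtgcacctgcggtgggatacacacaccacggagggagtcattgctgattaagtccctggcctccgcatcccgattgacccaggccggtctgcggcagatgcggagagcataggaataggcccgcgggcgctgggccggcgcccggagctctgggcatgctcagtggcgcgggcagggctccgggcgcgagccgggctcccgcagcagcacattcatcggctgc
Ddah2: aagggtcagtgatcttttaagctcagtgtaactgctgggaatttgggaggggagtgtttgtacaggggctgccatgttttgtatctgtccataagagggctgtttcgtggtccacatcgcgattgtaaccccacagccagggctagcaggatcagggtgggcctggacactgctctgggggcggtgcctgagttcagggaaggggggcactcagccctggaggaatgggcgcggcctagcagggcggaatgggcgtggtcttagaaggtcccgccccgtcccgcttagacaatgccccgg
Ass1: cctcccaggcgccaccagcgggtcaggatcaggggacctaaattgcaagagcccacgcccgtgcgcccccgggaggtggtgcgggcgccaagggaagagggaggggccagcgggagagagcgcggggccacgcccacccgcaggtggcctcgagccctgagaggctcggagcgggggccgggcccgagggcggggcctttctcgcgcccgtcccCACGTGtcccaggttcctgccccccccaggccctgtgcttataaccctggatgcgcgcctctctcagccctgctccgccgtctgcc
The Ass1 window held both orientations as the palindrome CACGTG, whose first base lies at -36 from the start. The Ddah1 and Ddah2 windows held neither ACGTG nor CACGT. Of 32851 mouse promoters of the same length, 19.6% held ACGTG on either strand and 7.15% held CACGTG, which overlaps ACGTG. The Gch1 promoter was also matched (4 of 6 members in all), and it held neither motif. Promoters of Nos2 and Arg2 were not matched. A match describes letters in this window and is not a site.

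NOS2 (ENSG00000007171) was near 0 at 20% O2 and stood far higher at 1% O2, and at 1% O2 it was at about 2.11-fold lower levels in shISG20 than in shNTC cells by recovered reads. In shNTC cells at 20% O2 the 3 libraries held 0, 0 and 0.169 TPM, 1 read in all. In shISG20 cells at 20% O2 they held 0, 0.110 and 0.175 TPM, 2 reads in all. The shNTC libraries at 1% O2 held 20.3, 20.5 and 22.4 TPM, from 516 reads. The shISG20 libraries at 1% O2 held 9.29, 12.0 and 8.34 TPM, from 208 reads. Every library at 1% O2 was above every library at 20% O2, and the 3 shISG20 libraries at 1% O2 were all below the 3 shNTC libraries, whereas the groups at 20% O2 overlapped.

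The ratio of NOS2 between 1% and 20% O2, by recovered reads scaled to library depth, was 393 in shNTC cells (95% exact binomial interval 70.2 to 15555) and 102 in shISG20 cells (27.9 to 848). These intervals cover counting error only, and their width comes from the 1 and 2 reads at 20% O2. On the log2(TPM + 1) scale, which understates changes of low genes, the difference was 4.39 (SE 0.158) and 3.30 (SE 0.158). NOS2 passed the filter on low values only through its 6 libraries at 1% O2, so it had to differ between oxygen levels, and no p is read from these contrasts.

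At 1% O2 the knockdown difference of NOS2 was -1.03 (SE 0.158, limma adjusted p = 0.00222 over all rows), from 21.1 ± 1.15 to 9.89 ± 1.92 TPM (SD, n = 3). The ratio of shISG20 to shNTC by reads was 0.475 (0.402 to 0.559). At 20% O2 the difference was 0.05 (SE 0.158, limma adjusted p = 0.884), which with at most 1 read per library says little of the level there. The rise at 1% O2 differed between the subclones by -1.08 (SE 0.224, limma adjusted p = 0.0177). Both groups were near 0 at 20% O2, so this value largely restates the knockdown difference at 1% O2 and is no separate result. With a pseudocount of 0.1 in place of 1, both calls were lost, at -1.10 (limma adjusted p = 0.154) and -1.47 (0.22). With voom on recovered reads the knockdown call at 1% O2 held at -1.05 (3.21e-08) and the call of the difference of rises was lost at -1.52 (0.281).

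The human table also has 4 rows named as NOS2 pseudogenes, none of which reached the filter. They held 36 reads in shNTC and 14 in shISG20 cells at 1% O2, and 0 and 1 at 20% O2. With these added, an alternative chosen after seeing the data, NOS2 stood at 23.2 ± 1.55 and 10.9 ± 1.78 TPM (SD, n = 3) at 1% O2. The knockdown difference stayed at -1.03 (limma adjusted p = 0.00313). The other synthases gave little signal: NOS1 had means of at most 0.0196 TPM, and NOS3, the endothelial enzyme, had means of 0.120 and 0.928 TPM in shNTC and 0.130 and 0.686 in shISG20 cells at 20% and 1% O2, under the filter.

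**Figure D1:**
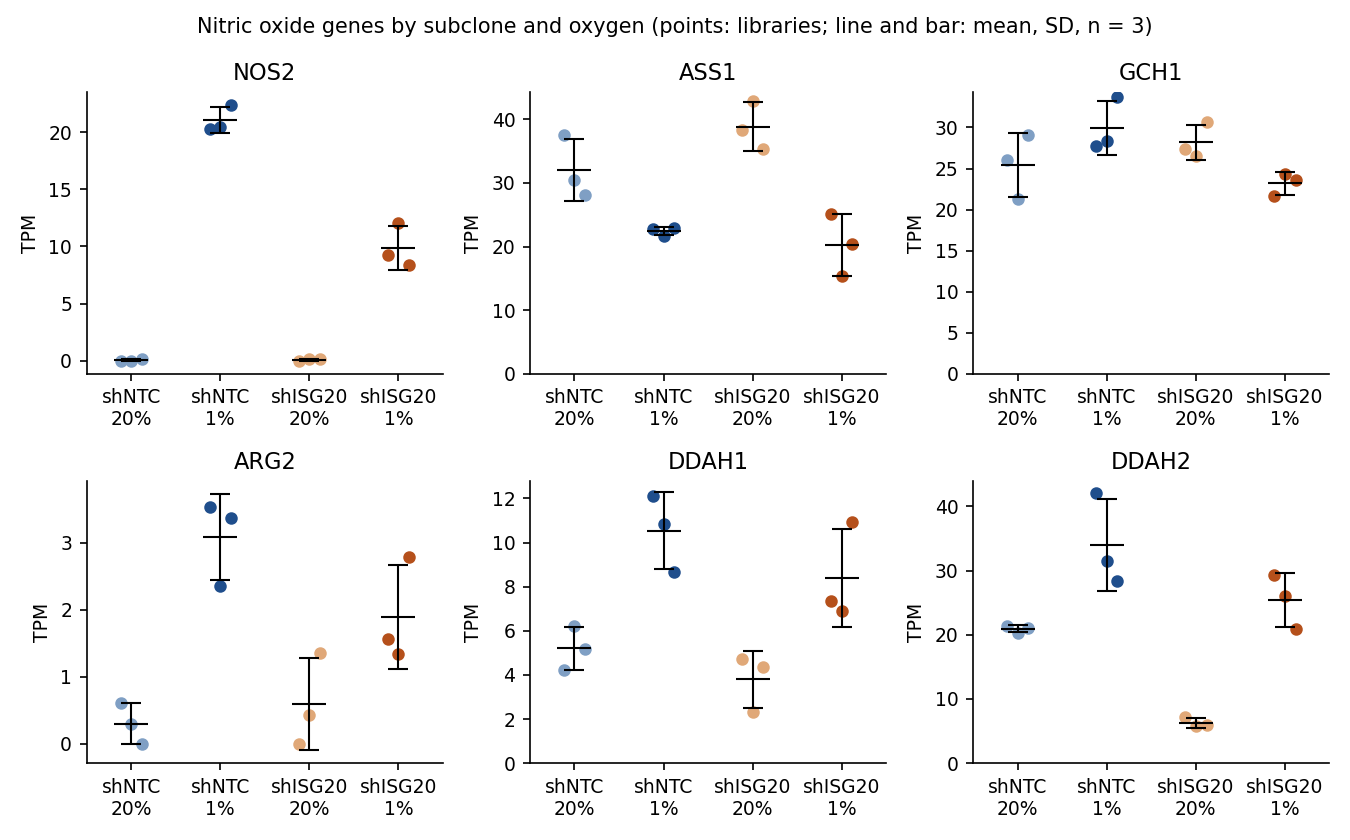
TPM of each of the 6 members in every library, by group, with a bar for the group mean and whiskers for 1 SD (n = 3), each panel on its own linear axis. NOS2 lies near 0 at 20% O2 and between 8.34 and 22.4 TPM at 1% O2, and DDAH2 is lowest in shISG20 cells at 20% O2.

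Of 15 leucocyte and macrophage markers, 2 reached the filter, CSF1R, the receptor for macrophage colony-stimulating factor, and AIF1, a protein of macrophages and microglia. The summed level of the list was 0 to 0.135 TPM in shNTC and 0.150 to 0.733 in shISG20 cells at 20% O2, against 4.03 to 5.90 and 1.94 to 4.18 at 1% O2. CSF1R and AIF1 thus passed the filter only through libraries at 1% O2, so they had to differ between oxygen levels. Between 11 and 13 of the 15 genes were at 0 in each group, and PTPRC, ADGRE1, ITGAM, CD68, LYZ and TYROBP were at 0 in all 12 libraries. For these genes, too, a 0 may be reads that did not align. Of 8 endothelial markers none was tested, their sum was at most 0.161 TPM in any library, and PECAM1 and CDH5 were at 0 throughout. The part of the leucocyte genes in the NOS2 values was not tested. In bulk samples, fewer cells that express a gene and less RNA per cell cannot be told apart.

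In a description over 12 libraries, the rows whose log2(TPM + 1) ran closest to NOS2 among 5658 searched were ITPK1, an inositol phosphate kinase, with Pearson r = 0.996, PPP2R1A, a scaffold subunit of protein phosphatase 2A (0.995), ERO1A, an oxidase of the endoplasmic reticulum (0.994), BHLHE40, a transcriptional repressor (0.993), and HGS, a sorting protein of endosomes (0.991). ITPK1 had means of 3.05 and 44.5 TPM in shNTC cells and 3.44 and 24.5 in shISG20 cells at 20% and 1% O2. ERO1A had 31.0 and 333 TPM, and 35.3 and 247. The same 4 groups set all these values, so a row that differs between oxygen levels will correlate. Among the other members, r with NOS2 was 0.878 for ARG2, 0.837 for DDAH1, 0.729 for DDAH2, 0.103 for GCH1 and -0.835 for ASS1.

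**Figure D2:**
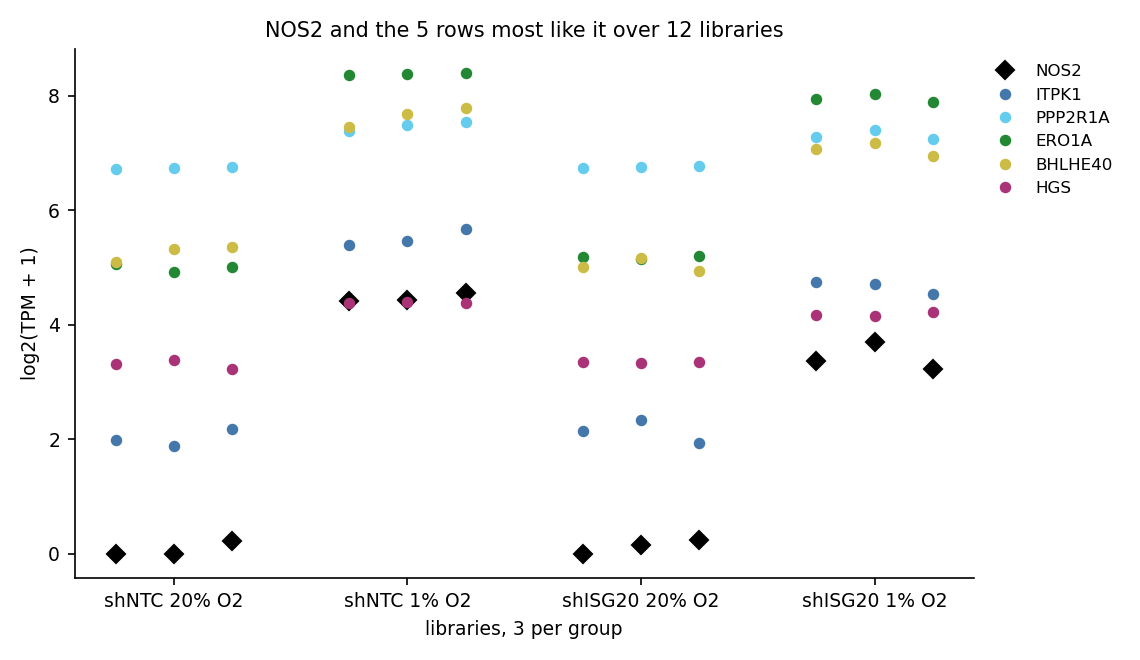
log2(TPM + 1) of NOS2 (diamonds) and of the 5 rows closest to it (circles) in each of the 12 libraries, by group. All are higher at 1% O2 than at 20% O2, with r from 0.991 to 0.996.

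For the arginine supply, ASS1 (ENSG00000130707), argininosuccinate synthase, was lower at 1% O2 in both subclones, the opposite direction to NOS2. In shNTC cells it had 37.4, 30.5 and 28.1 TPM at 20% O2 and 22.8, 21.6 and 22.9 at 1% O2. In shISG20 cells it had 38.3, 42.9 and 35.3 TPM at 20% O2 and 25.1, 15.3 and 20.3 at 1% O2. In neither subclone did the libraries of the oxygen levels overlap, while the subclones overlapped at both oxygen levels.

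ASS1 fell by 0.49 on the log2 scale in shNTC cells (SE 0.160, limma adjusted p = 0.0254) and by 0.93 in shISG20 cells (SE 0.160, limma adjusted p = 0.000453). The median log2 change of all rows was -0.28 and -0.35, and relative to it ASS1 was at -0.21 and -0.58. The shISG20 call held in every alternative run. The shNTC call was lost with median-of-ratios scaling (-0.16), with quantile normalization (-0.19), and without shNTC 20% O2 replicate 1 (-0.37) or any of shNTC 1% O2 replicates 1, 2 and 3 (-0.50, -0.46 and -0.50). The knockdown differences of 0.28 at 20% O2 and -0.17 at 1% O2 did not pass the test (limma adjusted p = 0.326 and 0.562), nor did the difference of the oxygen effects (-0.44, limma adjusted p = 0.279).

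Reads of ASS1 can be split over 14 rows named as ASS1 pseudogenes, which held 49.5 to 64.7% of the summed reads per library. Of the 13 of these rows that were tested, 11 had a lower mean at 1% O2 in shNTC cells (2 called lower) and 12 in shISG20 cells (6 called lower). The share of all rows called lower was 38.1% in shNTC and 42.8% in shISG20 cells, so nothing is read from these counts. Summed with ASS1, an alternative chosen after seeing the data, the level was 125 ± 13.1 and 81.9 ± 5.00 TPM in shNTC cells and 151 ± 10.6 and 85.2 ± 2.08 in shISG20 cells at 20% and 1% O2 (SD, n = 3). The log2 change at 1% O2 was then -0.60 in shNTC (limma adjusted p = 0.0001) and -0.82 in shISG20 cells (7.16e-06).

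**Figure D3:**
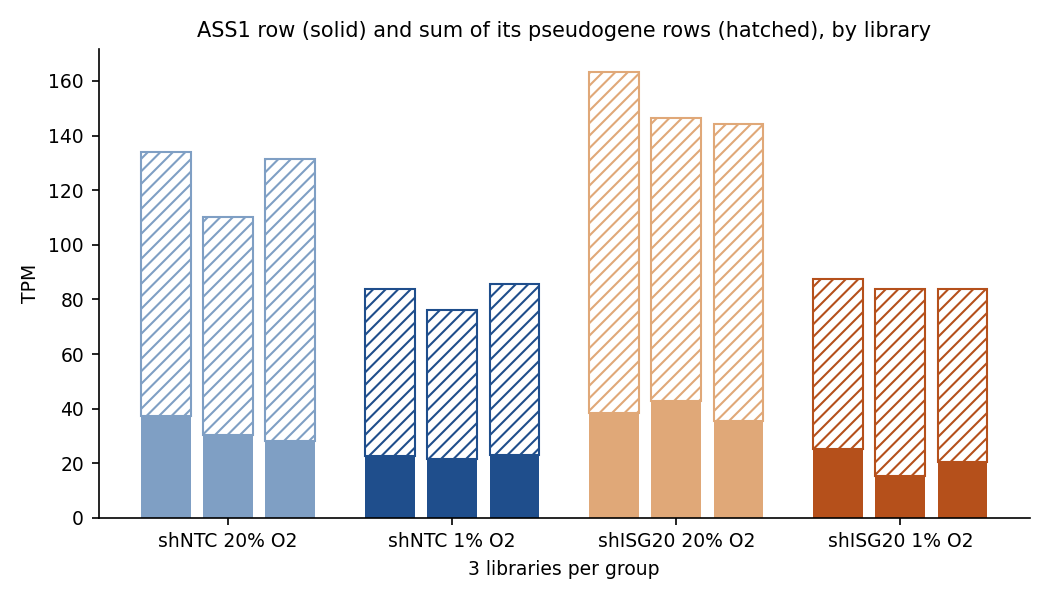
TPM in each of the 12 libraries, by group, with the ASS1 row as the solid part of each bar and the sum of its 14 pseudogene rows stacked on it as the hatched part. Both quantities are lower at 1% O2 in each subclone.

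The list on arginine supply and use held 22 further genes, of which 16 were tested. At 1% O2, 4 were called higher and 12 lower in shNTC cells, and 3 higher and 11 lower in shISG20 cells, with median log2 changes of -0.76 and -0.89. Across all rows, 12.8% were called higher and 38.1% lower in shNTC cells, and 14.0% and 42.8% in shISG20 cells. SRM, spermidine synthase, fell from 199 ± 8.08 to 50.2 ± 3.99 TPM in shNTC cells (SD, n = 3; log2 change -1.97, limma adjusted p = 9.15e-10) and from 280 ± 5.85 to 61.8 ± 0.104 in shISG20 cells (-2.16, 3.26e-10). AMD1, which provides the aminopropyl donor for polyamines, fell by 1.29 and 1.94 on the log2 scale (limma adjusted p = 2.62e-08 and 8.78e-10), and more in shISG20 cells (difference -0.66, limma adjusted p = 0.00199). ODC1, ornithine decarboxylase, fell by 1.52 in shNTC cells (limma adjusted p = 3.43e-07), with a value of -1.26 in shISG20 cells. SLC7A1, the cationic amino acid transporter, fell by 2.06 in shISG20 cells (limma adjusted p = 2.19e-07), with a value of -1.74 in shNTC cells.

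By knockdown, 5 genes of this list were called higher and 1 lower at 20% O2, and 3 higher and 2 lower at 1% O2, with medians of 0.05 and 0.09. Across all rows, 5.05% were called higher and 6.55% lower at 20% O2, and 4.25% and 9.66% at 1% O2. SAT1, which acetylates polyamines, rose by 0.61 at 20% O2 (limma adjusted p = 0.00281), and AZIN1, an inhibitor of the ornithine decarboxylase antizyme, by 0.41 (0.00155). SMS, spermine synthase, rose by 0.48 at 1% O2 (limma adjusted p = 0.00552), and AMD1 fell by 0.41 (0.00155).

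GCH1 (ENSG00000131979), GTP cyclohydrolase 1, did not pass the test in any comparison. In shNTC cells it had 26.1, 21.3 and 29.0 TPM at 20% O2 and 27.8, 28.3 and 33.7 at 1% O2. In shISG20 cells it had 27.4, 26.5 and 30.6 TPM at 20% O2 and 21.7, 24.4 and 23.6 at 1% O2. Within shISG20 cells the oxygen levels did not overlap, and at 1% O2 the subclones did not overlap. The log2 difference between subclones at 1% O2 was -0.35 (SE 0.119, limma adjusted p = 0.0787) and the difference of the oxygen effects was -0.50 (SE 0.168, limma adjusted p = 0.104).

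The oxygen effect on GCH1 was 0.23 in shNTC cells (limma adjusted p = 0.131) and -0.27 in shISG20 cells (0.0765), and the sign in shISG20 cells turned, at 0.11 with quantile normalization and 0.14 with median-of-ratios scaling. In shNTC cells GCH1 was called higher under both of these (0.54 and 0.56), with voom (0.38), with rows that match a mouse gene (0.29) and without shNTC 20% O2 replicate 3 (0.33). In shISG20 cells it was called lower, at -0.27, when only the groups compared were fitted (limma adjusted p = 0.0444) and with a replicate block (0.0443). Restricted to rows that match a mouse gene, the subclone difference at 1% O2 (-0.34, limma adjusted p = 0.0401) and the difference of the oxygen effects (-0.49, 0.0486) also passed.

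Of 8 other genes of tetrahydrobiopterin synthesis and recycling, 5 were tested. At 1% O2, 1 was called higher and 2 lower in shNTC cells, and 2 higher and 1 lower in shISG20 cells, with medians of 0.19 and -0.05, beside 12.8% of all rows higher and 38.1% lower in shNTC cells and 14.0% and 42.8% in shISG20 cells. Median-of-ratios scaling gave 1 higher and 0 lower in shNTC cells and 2 higher and 1 lower in shISG20 cells, at medians of 0.47 and 0.17. Under that scaling, 3319 of all rows were called higher and 3189 lower in shNTC cells, and 3795 and 3800 in shISG20 cells. QDPR, which regenerates the cofactor, rose from 9.32 to 22.1 TPM in shNTC cells (log2 change 1.17, limma adjusted p = 1.37e-05) and from 10.1 to 17.5 in shISG20 cells (0.75, limma adjusted p = 0.000328). AKR1B1, an aldose reductase that can act in cofactor synthesis, fell from 62.9 to 27.4 TPM in shISG20 cells (log2 change -1.17, limma adjusted p = 4.09e-06). Its value in shNTC cells was -0.51. AKR1B1 was also the 1 gene called by knockdown at 20% O2 (0.72, limma adjusted p = 0.00196), and 0 were called by knockdown at 1% O2 by limma (2 at an unadjusted p under 0.05, and 1 called by voom).

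ARG2 (ENSG00000081181), the mitochondrial arginase, was near its detection limit at 20% O2 and low at 1% O2. In shNTC cells it had 0.607, 0.296 and 0 TPM at 20% O2, from 3 reads, and 3.54, 2.35 and 3.36 at 1% O2, from 39 reads. In shISG20 cells it had 0, 0.425 and 1.35 TPM at 20% O2, from 6 reads, and 1.56, 1.33 and 2.78 at 1% O2, from 20 reads. The oxygen levels did not overlap in shNTC cells and did in shISG20 cells, where replicate 3 at 20% O2 (1.35) was above replicate 2 at 1% O2 (1.33).

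The ratio of ARG2 between 1% and 20% O2 was 9.90 in shNTC cells (95% exact binomial interval 3.15 to 50.1) and 3.27 in shISG20 cells (1.27 to 9.95). Only 1 library at 20% O2 reached 1 TPM, that labelled 484 hours, so ARG2 passed the filter through the libraries at 1% O2, and no p is read from the oxygen contrasts. Between the subclones at 1% O2 the read ratio was 0.604 (0.334 to 1.06) and the log2 difference -0.52 (SE 0.329, limma adjusted p = 0.347). At 20% O2 the difference was 0.23 (limma adjusted p = 0.732). ARG1, the liver arginase, was listed at 0 in all 12 libraries.

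DDAH1 (ENSG00000153904) rose at 1% O2 in both subclones. In shNTC cells it had 4.23, 6.20 and 5.20 TPM at 20% O2 and 12.1, 10.8 and 8.65 at 1% O2. In shISG20 cells it had 4.71, 2.33 and 4.37 TPM at 20% O2 and 7.36, 6.90 and 10.9 at 1% O2. The oxygen levels did not overlap in either subclone, and the subclones overlapped at both. The log2 change was 0.89 in shNTC cells (SE 0.238, limma adjusted p = 0.00876) and 0.98 in shISG20 cells (SE 0.238, limma adjusted p = 0.00439), which relative to the median of all rows was 1.17 and 1.33. The knockdown differences, -0.40 and -0.31 at 20% and 1% O2, did not pass (limma adjusted p = 0.343 and 0.449) and ranged from -0.54 to -0.15 and from -0.49 to -0.20 with a library left out, and the oxygen effects differed by 0.09 (SE 0.337, limma adjusted p = 0.912).

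DDAH2 (ENSG00000213722) was lower in shISG20 cells at 20% O2, and rose more at 1% O2 there. In shNTC cells it had 21.4, 20.3 and 21.1 TPM at 20% O2 and 42.1, 31.6 and 28.4 at 1% O2. In shISG20 cells it had 7.18, 5.75 and 5.88 TPM at 20% O2 and 29.3, 26.0 and 20.9 at 1% O2. The shISG20 libraries at 20% O2 lay below all others, and the subclones overlapped at 1% O2.

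The knockdown difference of DDAH2 was -1.60 at 20% O2 (SE 0.156, limma adjusted p = 0.000131), from 20.96 ± 0.556 to 6.27 ± 0.792 TPM (SD, n = 3), and -0.40 at 1% O2 (SE 0.156, limma adjusted p = 0.122), from 34.0 ± 7.15 to 25.4 ± 4.25. The latter was called with voom on recovered reads (-0.39, limma adjusted p = 0.0363). At 1% O2 DDAH2 rose by 0.65 in shNTC cells (limma adjusted p = 0.00462) and by 1.85 in shISG20 cells (1.78e-06). The difference of these rises was 1.20 (SE 0.220, limma adjusted p = 0.0108) and was called in every alternative run. Over the 12 libraries, the rows closest to DDAH2 were S100A4, a calcium-binding protein of motile cells (Pearson r = 0.980), PTPRS, a receptor tyrosine phosphatase (0.977), and OAF (0.974).

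**Figure D4:**
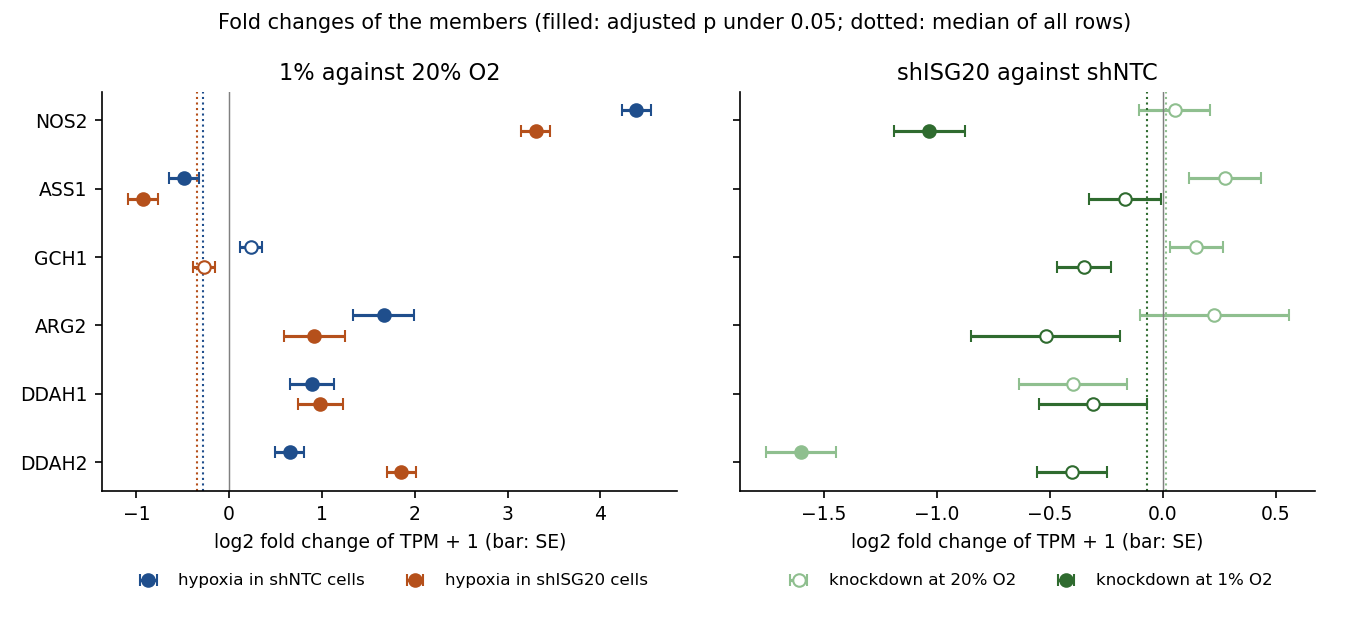
Fitted log2 fold change of TPM + 1 for each member in the knockdown and the oxygen comparisons, with limma's SE as whiskers, filled points for an adjusted p under 0.05 and dotted lines at the median of all rows. DDAH2 stands at -1.60 for knockdown at 20% O2 and NOS2 at -1.03 for knockdown at 1% O2.

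The opposite side of this step is the formation of methylarginines by protein arginine methyltransferases. The list held 8 genes under 9 names, with CARM1 also entered as PRMT4. All 8 were found and 7 were tested. All 7 were called lower at 1% O2 in both subclones, with medians of -1.08 and -1.26. Over all rows, 38.1% were called lower in shNTC and 42.8% in shISG20 cells. With median-of-ratios size factors, 6 of 7 were called lower in shNTC and 7 of 7 in shISG20 cells, at medians of -0.74 and -0.83. The calls over all rows then split into 3319 higher and 3189 lower in shNTC cells, and 3795 and 3800 in shISG20 cells. PRMT1, which makes most asymmetric dimethylarginine, fell from 418 ± 14.3 to 197 TPM in shNTC cells (SD, n = 3; log2 change -1.08, limma adjusted p = 1.87e-08) and from 420 to 175 in shISG20 cells (-1.26, 4.1e-09). PRMT3, an enzyme of the same class, fell by 1.69 and 2.43 on the log2 scale (limma adjusted p = 1.38e-07 and 6.86e-09), and more in shISG20 cells (difference -0.74, limma adjusted p = 0.0121). PRMT6, another, fell from 48.3 to 7.37 TPM in shISG20 cells (-2.58, limma adjusted p = 3.79e-08) and had 70.1 and 15.5 TPM in shNTC cells (-2.11). PRMT7 fell by 1.53 in shNTC cells (limma adjusted p = 2.21e-07), with a value of -1.65 in shISG20 cells. By knockdown, 2 were called higher and 1 lower at 20% O2, and 1 higher and 3 lower at 1% O2, among them PRMT3 (-1.06, limma adjusted p = 0.000115) and PRMT6 (-0.99, 0.000978). Over all rows, 5.05% were called higher and 6.55% lower by knockdown at 20% O2, and 4.25% and 9.66% at 1% O2.

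Partners of the synthases were mixed. Of 13 genes listed, 9 were tested. At 1% O2, 2 were called higher and 4 lower in shNTC cells, and 3 higher and 3 lower in shISG20 cells. The medians were -0.10 and -0.05. Across all rows, 12.8% were called higher and 38.1% lower in shNTC cells, and 14.0% and 42.8% in shISG20 cells. For the list, median-of-ratios scaling gave 6 higher and 2 lower, and 5 higher and 1 lower, at medians of 0.24 and 0.37. Over all rows that scaling called 3319 higher and 3189 lower in shNTC cells, and 3795 and 3800 in shISG20 cells. The calmodulin genes moved in both directions in shNTC cells, where CALM2 fell by 0.61 (limma adjusted p = 1.82e-06) and CALM3 rose by 0.47 (0.000315). In shISG20 cells CALM2 fell by 0.53 (limma adjusted p = 3.68e-06), a call lost with median-of-ratios scaling (-0.11, 0.0736). DYNLL1, a dynein light chain known to bind neuronal synthase, fell by 0.80 in shNTC cells (limma adjusted p = 2.38e-06) and had a value of -0.67 in shISG20 cells. By knockdown, 1 was called higher and 1 lower at 20% O2, and 2 higher and 1 lower at 1% O2. The shares of all rows were 5.05% higher and 6.55% lower at 20% O2, and 4.25% and 9.66% at 1% O2. CAVIN1, a coat protein of caveolae, was lower in shISG20 cells at both 20% O2 (from 284 to 104 TPM, -1.44, limma adjusted p = 2.51e-06) and 1% O2 (from 320 to 177 TPM, -0.85, limma adjusted p = 7.81e-05). The oxygen effect on CAVIN1 differed between the subclones by 0.59 (limma adjusted p = 0.0082).

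Of 20 genes of nitric oxide sensing, cyclic GMP and nitrosothiol removal, 11 were tested. The soluble guanylate cyclase genes GUCY1A1, GUCY1A2 and GUCY1B1, the receptor for nitric oxide, and PRKG1, a kinase that cyclic GMP activates, were listed at 0 in all 12 libraries. PRKG2, another kinase of this kind, was detected and tested, with 2375 reads over the 12 libraries. In each subclone 3 were called higher and 3 lower at 1% O2, at medians of 0.08 and -0.23. Across all rows, 12.8% were called higher and 38.1% lower in shNTC cells, and 14.0% and 42.8% in shISG20 cells. For the list, median-of-ratios scaling gave 4 higher and 0 lower in shNTC cells and 4 higher and 1 lower in shISG20 cells. The medians were then 0.41 and 0.18. That scaling called 3319 of all rows higher and 3189 lower in shNTC cells, and 3795 and 3800 in shISG20 cells. HMOX1, heme oxygenase 1, rose from 21.2 ± 1.59 to 69.2 TPM in shNTC cells (SD, n = 3; log2 change 1.66, limma adjusted p = 1.16e-07) and had 31.8 and 33.5 TPM in shISG20 cells. The oxygen effect on HMOX1 differed between the subclones by -1.59 (SE 0.133, limma adjusted p = 0.000425), and its knockdown differences were 0.56 at 20% O2 (0.00357) and -1.03 at 1% O2 (0.000115). BLVRB, biliverdin reductase B, rose by 1.80 and 1.83 in shNTC and shISG20 cells (limma adjusted p = 1.05e-07 and 6.63e-08). PDE5A, a phosphodiesterase of cyclic GMP, fell by 1.38 in shISG20 cells (limma adjusted p = 0.000106), with a value of -0.52 in shNTC cells. By knockdown, 2 of the list were called higher and 1 lower at 20% O2, and 2 were called lower at 1% O2, HMOX1 and TXNRD1, a thioredoxin reductase (-0.63, limma adjusted p = 0.0017). Over all rows, 5.05% were called higher and 6.55% lower by knockdown at 20% O2, and 4.25% and 9.66% at 1% O2.

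All 14 transcription factors and regulators listed as acting on the NOS2 promoter were tested. At 1% O2, 2 were called higher and 10 lower in shNTC cells and 2 higher and 11 lower in shISG20 cells, at medians of -0.92 and -0.76. Across all rows, 12.8% were called higher and 38.1% lower in shNTC cells, and 14.0% and 42.8% in shISG20 cells. With median-of-ratios size factors the list had 4 higher and 9 lower, and 5 higher and 7 lower. The calls over all rows then split into 3319 higher and 3189 lower in shNTC cells, and 3795 and 3800 in shISG20 cells. RELB, an NF-kappaB subunit, fell by 1.89 and 1.43 on the log2 scale (limma adjusted p = 1.51e-08 and 7.76e-08), and CEBPB, a basic leucine zipper factor, by 1.03 and 1.26 (5.29e-07 and 7.76e-08). HMGA1, an architectural chromatin protein, rose by 1.65 in shISG20 cells (limma adjusted p = 1.7e-07), with a value of 1.12 in shNTC cells (227 and 495 TPM at 20% and 1% O2). By knockdown, 1 was called higher and 3 lower at 20% O2, and 3 higher and 4 lower at 1% O2, beside 5.05% and 6.55%, and 4.25% and 9.66%, of all rows. HIF1A, the oxygen-regulated subunit of hypoxia-inducible factor, was lower in shISG20 cells at both 20% O2 (from 112 to 85.1 TPM, -0.40, limma adjusted p = 0.00384) and 1% O2 (from 102 to 71.6 TPM, -0.51, limma adjusted p = 0.001). NFKBIA, an inhibitor of NF-kappaB, was higher in shISG20 cells at 1% O2 (0.80, limma adjusted p = 0.000137), and its oxygen effect differed between the subclones by 1.24 (0.000425). The oxygen effects on JUN, an AP-1 factor, and KLF6, a zinc finger factor, differed by -0.72 and -0.66 (limma adjusted p = 0.00127 and 0.00508).

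**Figure D5:**
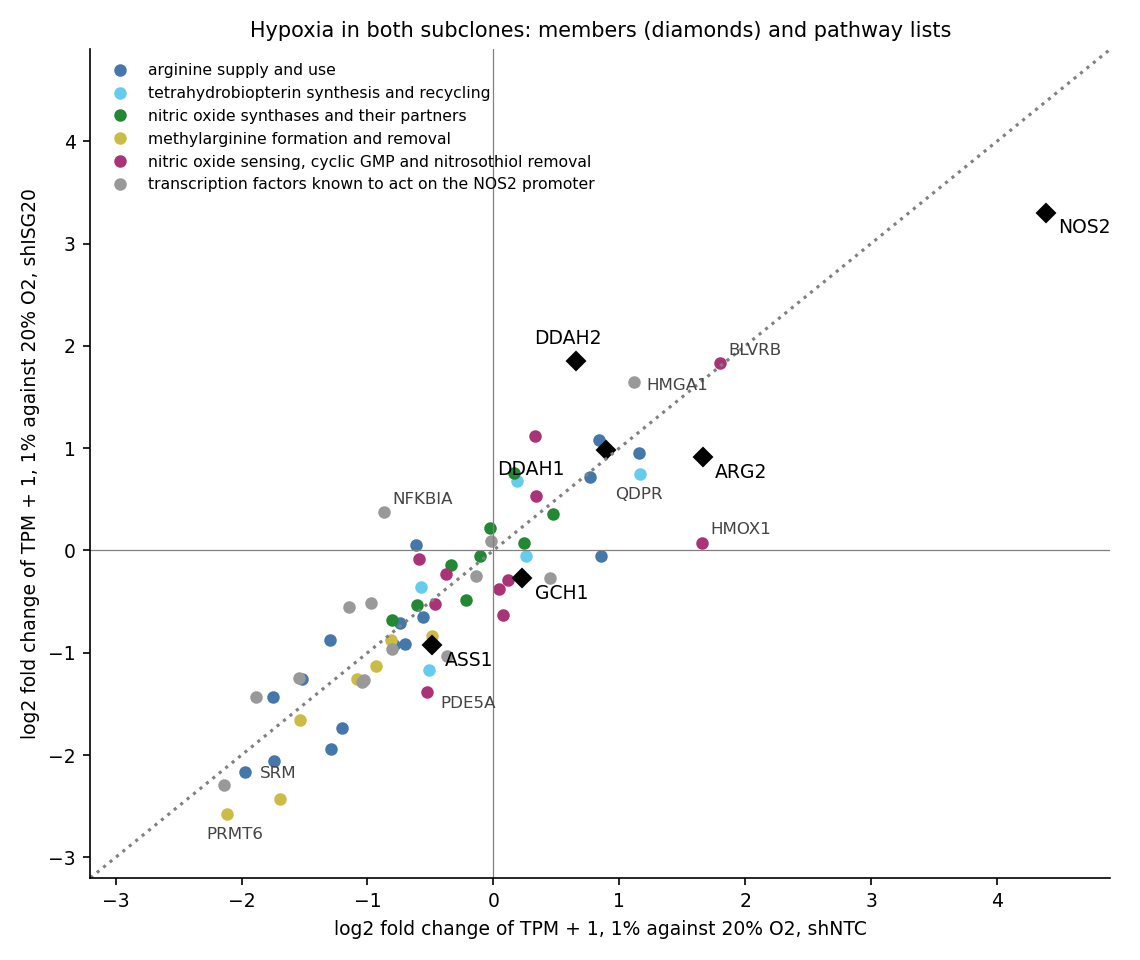
log2 fold change at 1% O2 in shNTC cells (horizontal) against that in shISG20 cells (vertical) for the 6 members (diamonds) and the tested genes of the 6 pathway lists (circles, by list), with a dotted line of equal change. NOS2, at 4.39 and 3.30, lies farthest from 0, and the methylarginine list lies below 0 on both axes.

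Across the members, 4 were called higher and 1 lower at 1% O2 in each subclone, at medians of 0.77 and 0.95 against -0.28 and -0.35 over all rows. Of all rows, 12.8% were called higher and 38.1% lower in shNTC cells, and 14.0% and 42.8% in shISG20 cells. NOS2 and ARG2 are among the 4 members called higher, and nothing is read from that count. With median-of-ratios size factors, 5 were called higher and 0 lower in shNTC cells. The calls over all rows then split into 3319 higher and 3189 lower in shNTC cells, against 1847 and 5479, and 3795 and 3800 in shISG20 cells, against 2021 and 6152. By knockdown, DDAH2 was the member called lower at 20% O2 and NOS2 the member called lower at 1% O2. Of all rows, 5.05% were called higher and 6.55% lower at 20% O2, and 4.25% and 9.66% at 1% O2. No member was called higher by limma or by voom at either oxygen level, and none had a higher value at an unadjusted p under 0.05. For the difference of oxygen effects, DDAH2 was called higher and NOS2 lower, where 2.62% of all rows were called higher and 4.31% lower. As NOS2 was near 0 at 20% O2, its call there largely restates its knockdown difference at 1% O2.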

How the data were processed

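RNA-seq libraries of 12 samples were analysed from 1 table of TPM values that the authors deposited, with FastQC, STAR, featureCounts and the human build GRCh38 named per the submitters' processing notes. Tool versions, and how TPM was computed, are not given in the sources used here. TPM values are relative to each library's total, so they move with its composition. For 100% of the values above 0, ratios between libraries were whole-number ratios (tolerance 0.01), which gave reads up to a common divisor per row. These reads served for counting intervals and for voom.

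Differences were tested with limma 3.58.1 (R 4.3.3) on log2(TPM + 1), with all 12 libraries, 1 coefficient per group, a variance trend and rows of at least 1 TPM in at least 3 libraries. Of the 14389 rows tested, 8337 matched a mouse gene by symbol. P-values were Benjamini-Hochberg adjusted over all rows, with a threshold of 0.05, and errors are SD over 3 libraries or limma's SE. Read ratios carry exact binomial intervals. Tables were handled in Python 3.11.15 (pandas 2.3.3, scipy 1.17.1).

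The members, lists and tests were chosen with earlier results of these data known. Named genes were the members, up to 3 called genes with the smallest p per list and comparison, and the rows closest to NOS2. Of the list genes, those whose call was lost in an alternative are counted and not named there as called, and a few others are left out for length. CALM2 in shISG20 cells is the exception, named together with the loss of its call. Same-numbered replicates did not vary together (correlations of deviations -0.042 to 0.015 over 18 pairs), so no pairing was used. Replicate libraries differed beyond sampling noise (chi-square per degree of freedom 1.33 to 2.28). Alternatives covered the pseudocount, the filter, scaling, the trend, voom, a replicate block, the samples fitted and each library left out.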

Additional observations from a re-analysis of the deposited data

Results flagged for a closer look

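The change of DDAH2 from 20% to 1% O2 differed between the subclones, being larger in shISG20 cells by 1.20 on the log2(TPM + 1) scale (SE 0.220, limma adjusted p = 0.0108), with mean levels of 20.96 and 34.0 TPM in shNTC cells and 6.27 and 25.4 in shISG20 cells.

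The change of NOS2 differed in the other direction, by -1.08 (SE 0.224, limma adjusted p = 0.0177), with mean levels of 0.0565 and 21.1 TPM in shNTC cells and 0.0952 and 9.89 in shISG20 cells. The call was lost with a pseudocount of 0.1 (-1.47, limma adjusted p = 0.22) and with voom (-1.52, 0.281). NOS2 was near 0 in both subclones at 20% O2. The -1.08 thus largely restates the knockdown difference at 1% O2 (-1.03) and is no separate result.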

How the results depend on the processing

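Of 535 alternative values of the members, 501 kept their direction and side of the threshold, 15 lost a call, 10 gained one and 9 changed sign. None of the 9 was called. They were the difference of oxygen effects of DDAH1 (-0.16 to 0.23 with each library left out), the knockdown difference of ASS1 at 1% O2 (-0.33 to 0.012 with each library left out, and 0.058 with pseudogene rows added), the oxygen effect of GCH1 in shISG20 cells (0.11 with quantile normalization and 0.14 with median-of-ratios size factors), and the knockdown difference of ARG2 at 20% O2 (-0.10 to 0.52 with each library left out). Over all rows, 1670 were called by knockdown at 20% O2, and 1086 to 1155 with a library left out, the lowest without shISG20 replicate 2. By knockdown at 1% O2, 2001 were called, 957 when only the groups compared were fitted, and 1161 to 1892 with a library left out, the lower values without shNTC replicate 2 (1161) and shISG20 replicate 3 (1317). For the difference of oxygen effects, 997 were called, 1835 with voom, and 597 to 1042 with a library left out, the lower values without replicate 2 of shISG20 at 20% O2 (597), replicate 2 of shNTC at 1% O2 (632), the library labelled 484 hours (635) and replicate 1 of shNTC at 20% O2 (659). Fewer libraries give these fits less to estimate the spread from, and other causes were not tested. With median-of-ratios size factors the calls split into 1032 higher and 1084 lower for knockdown at 1% O2, against 611 and 1390, and into 595 and 455 for the difference of oxygen effects, against 377 and 620. With the replicate block, 1438, 1748, 7129, 8087 and 726 rows were called for knockdown at 20% O2, at 1% O2, oxygen in shNTC cells, in shISG20 cells and the difference, and the block changed no call of NOS2, DDAH1, DDAH2, ASS1 or ARG2, while GCH1 in shISG20 cells was called (-0.27). A filter of 5 TPM gives no value for ARG2, and fitting only the groups compared is not a separate fit for the difference, which uses all 4. Depth limits NOS2 and ARG2 at 20% O2, where a library held at most a few reads.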
